A study of Blastobotrys raffinosifermentans with 8 samples.

Results

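The genes described here are those of the yeast Blastobotrys raffinosifermentans whose signal was highest at 15 min, the first of 4 harvests, both with and without protocatechuic acid. For each gene and medium, a score was formed as the log2 value at 15 min minus the highest of the log2 values at 30 min, 2 h and 5 h, and the lower of the scores of the 2 media was kept. Members are the 150 identifiers with the highest score among the 6065 chromosomal identifiers with at least 3 probes, out of 6161 identifiers on the array. A score above 0.3 was required, and identifiers whose values in the 2 media differed by 1 or more on the log2 scale at 15 min were left out before the 150 were taken. Members are referred to by their rank, with rank 1 for the highest score, and the files do not pair their identifiers with gene names or products.

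Expression was measured in strain LS3 on 8 one-colour arrays, 1 for each medium and time. Cells grown overnight on glucose and sodium nitrate in yeast minimal medium were pelleted and moved to the same medium with 1% glucose and 0.5% protocatechuic acid (PA cultures) or with 1% glucose alone (Glc cultures), with harvests at 15 and 30 min and at 2 and 5 h. All 8 arrays therefore share the strain, the pelleting, the transfer, the nitrate and the glucose, and no array represents the cells before the transfer. Whether the 4 harvests of a medium came from 1 flask was not stated. With 1 array per condition, no value has a replicate, and errors are given as the SD over the probes of a gene, which covers the probes and not the cultures.

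Protocatechuic acid is a dihydroxylated benzoic acid that some yeasts and fungi can use as a carbon source. When yeast cells are pelleted and moved to fresh medium, many transcripts are known to change within minutes, and a part of them returns as the cells adapt. A transcript that is made in a short burst is lost at a pace set by the decay of its mRNA, whereas a transcript that is still made settles at a new level. Signal on an array of total RNA does not separate synthesis from decay.

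The rule fixed the higher signal at 15 min, so all differences between 15 min and later times are given as a description. The score was 5.52 at rank 1, 0.95 at the median member, and 0.564 at rank 150, against 0.553 at the next identifier outside. The limit of 150 therefore cut through a continuous range, as 273 identifiers met the other conditions. A score of at least 2 was held by 12 members, of at least 1 by 69, and the other 81 lay below 1. The lower of the 2 scores came from the PA cultures in 87 members and from the Glc cultures in 63. A further 62 identifiers with scores above 0.3 were left out because of the difference between media at 15 min, 28 of them higher and 34 lower with protocatechuic acid.

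The arrays differed in the share of spots well above background, from 58.9% to 70.2%. At 15 min it was 70.0% in the PA and 69.4% in the Glc culture, and at 30 min 61.7% and 58.9%. At 2 h it was 68.7% and 64.7%, and at 5 h 59.0% and 70.2%. Its part in the differences between times and media was not tested. No spot was saturated, and at most 7 spots per array were marked as outliers. By the numbers of the arrays on the slide, each time point occupied 1 position along the slide and each medium 1 row, so time and position, and medium and row, cannot be told apart. Spike-in RNAs, which are added in fixed amounts, are listed in the authors' table as 10 probes. Of these, the 5 whose log2 values lay between 6 and 15 on all arrays, a choice made here that leaves out dim and very bright probes, were lower at 15 min than at 30 min by a median of 0.20 in the PA cultures and of 0.26 in the Glc cultures. Over all 10 probes the medians of 15 min minus 30 min were −0.15 in the PA cultures and −0.17 in the Glc cultures, and 1 probe was higher at 15 min in the Glc cultures.

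On the log2 scale after background correction and quantile normalization, the median member had a level of 7.96, 6.57, 6.69 and 6.61 in the PA cultures, given from the first to the last of the 4 times. In the Glc cultures these medians were 8.13, 6.69, 6.53 and 6.72 in the same order, in which the levels of single members are also given. The median of all 6037 genes tested lay between 6.44 and 6.46 on every array, so that the median member came close to the typical gene of the array at all later times. The members did not start from a common level. At 15 min they covered 6.43 to 13.42 in the PA cultures and 6.44 to 13.34 in the Glc cultures.

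**Figure D1:**
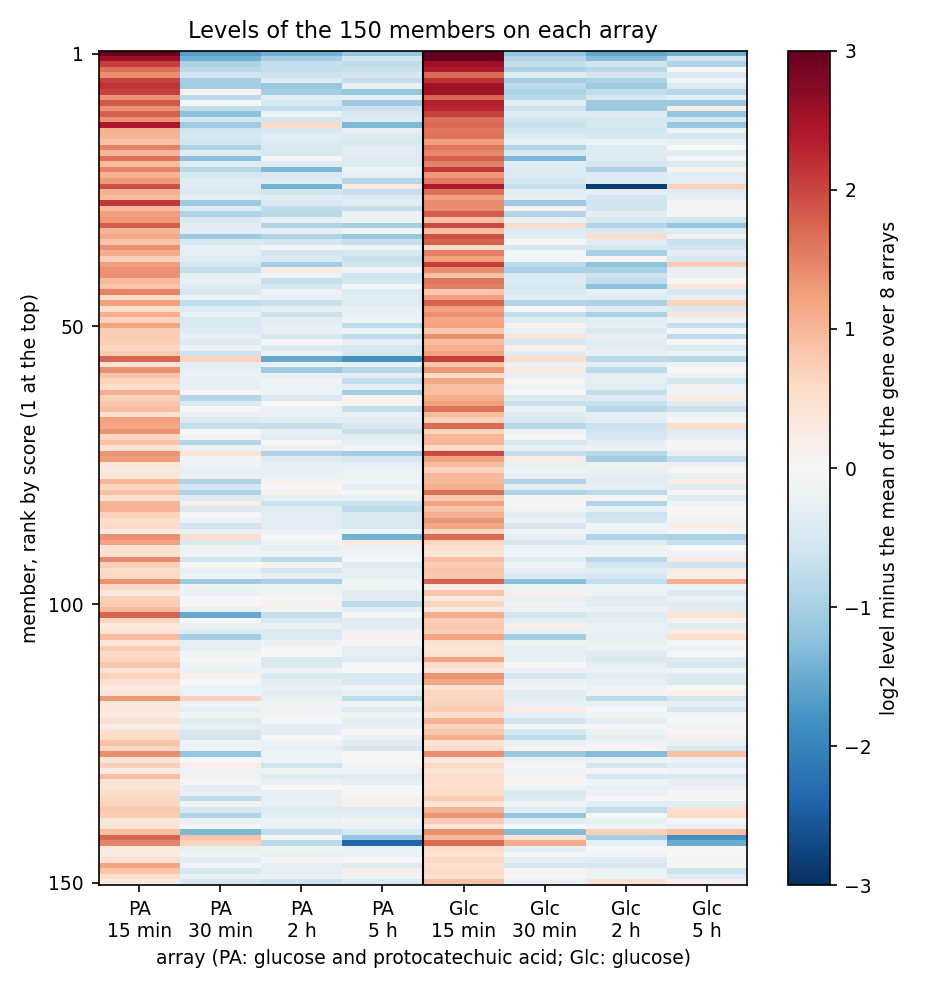
Log2 level of the 150 members (rows, by rank) on the 8 arrays (columns, PA cultures left, Glc cultures right, each from 15 min to 5 h), with each row shown relative to its mean over the 8 arrays. The 15 min column is the highest of each medium in every row, as the rule requires, and the later columns vary between members.

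ARAD1D18788g, at rank 1, had log2 levels of 11.68, 6.23, 6.44 and 6.70 over the 4 times in the PA cultures, and of 12.51, 6.69, 6.33 and 6.43 in the Glc cultures. The 2 arrays of 15 min stood far above the 6 later ones, which covered less than 1 log2 step among themselves. With the constant of 50 that was added to every signal, and which lowers the ratio to a dim level, the value at 15 min was 43.8 times that at 30 min in the PA cultures and 56.8 times in the Glc cultures. Its 10 probes did not give a common level, with an SD over probes at 15 min of 0.93 in the PA culture and 2.63 in the Glc culture. All 10 probes were well above background at 15 min in both media, but only 5 or 6 of them at the later times, so these ratios rest on later levels close to background.

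ARAD1D39886g, at rank 2, had log2 levels of 10.66, 6.67, 7.07 and 7.52 in the PA cultures and of 11.23, 7.22, 6.78 and 7.53 in the Glc cultures over the same times. On the same scale the level at 15 min was 15.9 times that at 30 min with protocatechuic acid and 16.2 times with glucose alone. Only 3 further members differed by at least 3 on the log2 scale between 15 and 30 min in both media, at ranks 3, 6 and 7. They reached this size from unlike levels. Rank 7 had 12.53, 9.31, 9.21 and 10.15 in the PA cultures and 12.90, 9.58, 9.27 and 9.92 in the Glc cultures, and it remained far above the typical gene at all later times. Rank 3 had 8.98, 5.96, 6.21 and 6.14 in the PA cultures and 9.44, 6.19, 6.31 and 5.98 in the Glc cultures. At 30 min only 1 of its 10 probes was well above background in the PA culture and 2 in the Glc culture. At 5 h it was 1 of 10 in either medium, so rank 3 was at the edge of detection at both times. At rank 6, with 10 probes, 3 were well above background at 30 min in the PA culture and 1 in the Glc culture. The differences of these 2 members therefore rest on 30 min levels close to background.

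**Figure D2:**
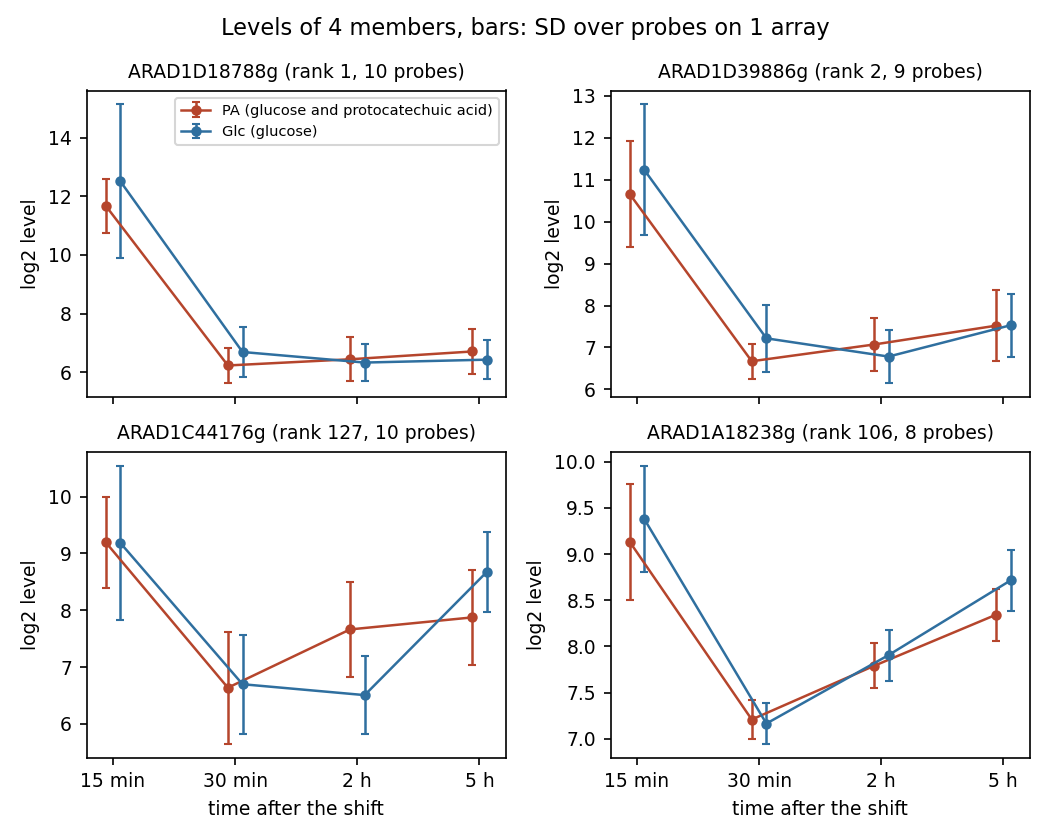
Log2 level of the 4 members named by identifier at each harvest time, with PA and Glc cultures as separate lines and error bars giving the SD over the probes of the gene on 1 array. The upper pair are the members at ranks 1 and 2, the lower pair are those with the largest 5 h minus 30 min in the lower of the 2 media, and all 4 share the high point at 15 min.

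Between 15 and 30 min the members differed by a median of 1.13 in the PA cultures (0.36 to 5.45) and of 1.28 in the Glc cultures (0.38 to 5.83) on the log2 scale. All genes tested had medians of −0.06 and −0.03. A difference of at least 1 in both media was found in 75 of the 150 members and in 2.39% of all genes tested, and one of at least 2 in 22 members and in 0.547% of all genes tested. These sizes depend on the constant that was added to the signal, because a constant of 50 compresses the differences of dim genes. With no constant the medians were 1.79 in the PA cultures and 1.95 in the Glc cultures. Across the 150 members, the differences in the 2 media went together, with a Pearson correlation of 0.83, as a description, since the rule selected on both and all members share the same arrays.

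Most of the decline was complete at 30 min, as a description, because the rule placed every later value below that of 15 min. Where 30 min was the lowest later time, the decline counts as complete by definition. As a share of the difference between 15 min and the lowest later value of a member, the level at 30 min had covered a median of 93.8% in the PA cultures and 93.0% in the Glc cultures. At least 90% was covered by 30 min in both media in 64 members. The lowest of the 3 later values was at 30 min in 62 members, at 2 h in 37 and at 5 h in 51 in the PA cultures. In the Glc cultures it was at 30 min in 50 members, at 2 h in 57 and at 5 h in 43. The lowest later time was the same in both media in 77 of 150 members (51.3%), which is close to the 54.2% of all genes tested.

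Less than 50% was covered by 30 min in both media in 3 members, at ranks 129, 142 and 143, and the last 2 of these had high levels throughout the first 30 min. Rank 143 had log2 levels of 11.87, 11.07, 9.60 and 8.03 in the PA cultures and of 12.09, 11.51, 10.13 and 8.91 in the Glc cultures. Rank 142 had 11.22, 10.31, 9.51 and 8.30 in the PA cultures and 10.45, 9.89, 8.45 and 7.67 in the Glc cultures. In both, every later array was lower than the one before it in the same medium. The member with the highest level of all, at rank 58, had 13.42, 11.78, 10.94 and 11.18 in the PA cultures and 13.34, 12.34, 11.25 and 12.08 in the Glc cultures. Even its lowest value was thus above the level that most members reached at 15 min.

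The rule used only the highest of the later values and fixed no direction among them, so the later times were compared with limma. The fit used the 6 arrays of 30 min, 2 h and 5 h, with the media standing in for replicates of a time, and it had 2 residual degrees of freedom and 1.74 from the prior. Between 5 h and 30 min, 0 of the 150 members passed Bonferroni adjustment over 6037 genes (smallest adjusted p = 0.298), against 0.0663% of all genes. With Benjamini-Hochberg adjustment 8 members passed at 0.05, or 5.33% of the members against 5.75% of all genes. Of these, 5 were higher at 5 h, against 2.58% of all genes, and 3 were lower, against 3.16%. This count depended on the processing. It was 19 (12.7% of the members) in the authors' table, against 10.1% of all genes, and also 19 with an added constant (offset) of 16 in place of 50. It was 28 (18.7%) at offset 0, against 13.7% of all genes, 33 (22%) with the processed signal, against 14.8%, and 27 (18%) with a trended and robust fit, against 12.6%. Without the 2 h arrays it was 0, as for all genes. At an unadjusted p under 0.05 there were 47 members (25.3% of all genes), 26 higher (13.2% of all genes) and 21 lower (12.2% of all genes). Between 2 h and 30 min, 0 members passed either adjustment, against 0% of all genes by Bonferroni and 1.06% by Benjamini-Hochberg (smallest adjusted p of a member by limma = 0.0517), and 30 had an unadjusted p under 0.05, against 21.9% of all genes. With other processing, up to 10 members (6.67%) passed the Benjamini-Hochberg adjustment for this comparison. This was so at offset 0, against 6.92% of all genes, and with the processed signal, against 7.22%. The spike-in RNAs also differed between 30 min and 5 h. In the authors' table, the 5 probes with values between 6 and 15 had 6.84, 7.96, 10.20, 12.03 and 12.83 at 30 min in the Glc culture. At 5 h they had 6.16, 7.14, 9.42, 11.26 and 12.31. In the PA culture they had 6.71, 7.80, 10.12, 11.92 and 12.77 at 30 min. At 5 h the PA values were 6.70, 7.65, 10.01, 11.87 and 12.89. Their part in the 5 h minus 30 min results was not tested.

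Of the 8 members past the Benjamini-Hochberg adjustment, ARAD1A18238g, at rank 106, rose the most. It had log2 levels of 9.13, 7.21, 7.79 and 8.34 in the PA cultures and of 9.38, 7.17, 7.91 and 8.72 in the Glc cultures. The levels of the 3 later times did not overlap between times and were ordered the same way in both media. At 5 h it was 1.34 ± 0.12 higher than at 30 min on the log2 scale (SE of the limma fit, Benjamini-Hochberg adjusted p = 0.0290). Over 11 other settings its adjusted p lay between 0.00572 and 0.0903, and it missed 0.05 only without the 2 h arrays, where none of the 8 passed. The other 4 that rose, at ranks 9, 18, 22 and 123, were higher at 5 h by 0.55 to 0.75. The member at rank 9 had no probe well above background at 30 min in either medium, so its increase is a difference from a background value. Those that fell were at ranks 131, 142 and 143. Their 5 h minus 30 min was −2.82 ± 0.13 at rank 143 (SE, Benjamini-Hochberg adjusted p by limma = 0.0144), −2.11 ± 0.18 at rank 142 (adjusted p = 0.0265) and −0.51 ± 0.06 at rank 131 (adjusted p = 0.0404). The calls were not equally stable over the 11 other settings. Rank 22 passed in only 6 of them, with a Benjamini-Hochberg adjusted p by limma of up to 0.183. Ranks 9, 18 and 142 passed in 9, and ranks 123, 131 and 143, like rank 106, in 10.

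ARAD1C44176g, at rank 127, had the largest difference between 5 h and 30 min when the lower of the 2 media was taken, but it did not pass. It had log2 levels of 9.20, 6.64, 7.66 and 7.87 in the PA cultures and of 9.18, 6.70, 6.51 and 8.68 in the Glc cultures. At 15 and 30 min the media were almost at the same level, and at 2 h the PA culture was higher by 1.16 and at 5 h lower by −0.80. The estimate over both media was 1.61 ± 0.51 (SE, Benjamini-Hochberg adjusted p = 0.170).

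When members were sorted by the difference between 5 h and 30 min with a limit of 0.5 on the log2 scale, 68 stayed within the limit in both media (45.3% of the members, against 65% of all genes tested). Values at 5 h were above those at 30 min by the limit or more in both media in 20 members (13.3%, against 5.15%), and below in both media in 7 members (4.67%, against 5.7%). In 2 members, at ranks 12 and 148, 5 h minus 30 min reached the limit in opposite directions (against 0.431% of all genes). The other 53 members (35.3%, against 23.7%) fell into none of these groups. Their later values spanned the limit or more in at least 1 medium. The 68 members whose later values lay within the limit had low levels. Their medians were 7.21 at 15 min and 6.31 at 30 min in the PA cultures, and 7.42 and 6.31 in the Glc cultures. The 20 members with the higher 5 h values had medians of 8.90, 6.50, 7.22 and 7.67 at the 4 times in the PA cultures and of 9.09, 6.76, 6.94 and 8.29 in the Glc cultures. Their median level at 5 h lay between those of 30 min and 15 min. The rule and the choice of these members fixed this in both media.

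**Figure D3:**
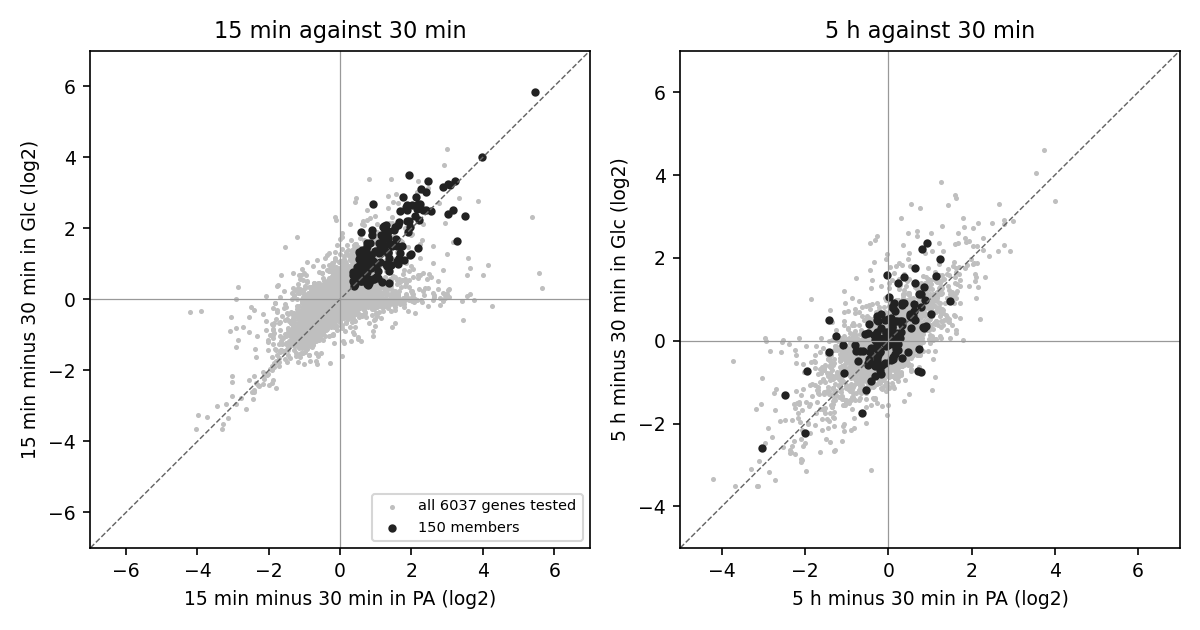
Left, the log2 difference between 15 and 30 min for each member, with the PA cultures on the horizontal and the Glc cultures on the vertical axis; right, the log2 difference between 5 h and 30 min on the same axes; black points are the 150 members, grey points all 6037 genes tested, and the dashed line marks equal values in the 2 media. All black points of the left plot lie above 0 because the rule placed them there, whereas those of the right plot lie on both sides of 0.

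The effect of protocatechuic acid on the members was examined at the later times, because the rule bounds the difference between media at 15 min. In the limma fit over the 3 later times with time as a block, 0 members passed Bonferroni or Benjamini-Hochberg adjustment (0% of all genes by either, smallest Benjamini-Hochberg adjusted p of a member = 0.741). With the processed signal 1 member (0.667%) passed the Benjamini-Hochberg adjustment, against 0.315% of all genes. At an unadjusted p under 0.05, 5 members were higher and 13 lower in the PA cultures, against 2.09% and 2.72% of all genes. The member at rank 34 had the largest of these differences in size, with log2 levels of 8.78, 6.58, 6.73 and 6.51 in the PA cultures and of 9.56, 7.32, 8.21 and 7.54 in the Glc cultures. The PA value was below the Glc value at each of the 4 times, and the estimate over the later times was −1.09 ± 0.16 (SE, adjusted p by limma = 0.741).

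At single times, with 1 array against 1, differences between media have no test. The median difference of PA minus Glc over the members was 0.00 at 30 min, 0.02 at 2 h and −0.11 at 5 h. At 5 h, 103 of the 150 members were lower in the PA culture, against 49.6% of all genes tested. At this time the spike-in RNAs in the authors' table differed the other way, by a median of 0.58 over the 5 probes between the limits and of 0.41 over all 10 (0.01 to 0.61), and their part in the result was not tested. At 15 min, where the rule limits the size of the difference but not its sign, the median was −0.29 and 110 members were lower in the PA culture, against 63.5% of all genes tested and a median of −0.06. The rule selected the members on the values of this time, so this too is a description.

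Differences between media of at least 1 on the log2 scale were counted at each later time. At 30 min 2 members, at ranks 8 and 73, were higher in the PA culture (against 1.23% of all genes tested) and 1, at rank 102, was lower (against 0.199%). At 2 h 5 members were higher, at ranks 14, 25, 40, 127 and 142 (against 1.01%), and 3 lower, at ranks 34, 141 and 150 (against 0.48%). At 5 h 0 members were higher (against 0.381%) and 7 lower, ranks 34 and 141 among them (against 0.861%). No direction was thus shared by the 3 times. The totals of 3, 8 and 7 members were 11, 19 and 20 at offset 0 and 25, 30 and 31 with the processed signal. The shares of all genes at these 2 settings are not given here, so the larger totals cannot be read as a trait of the members.

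**Figure D4:**
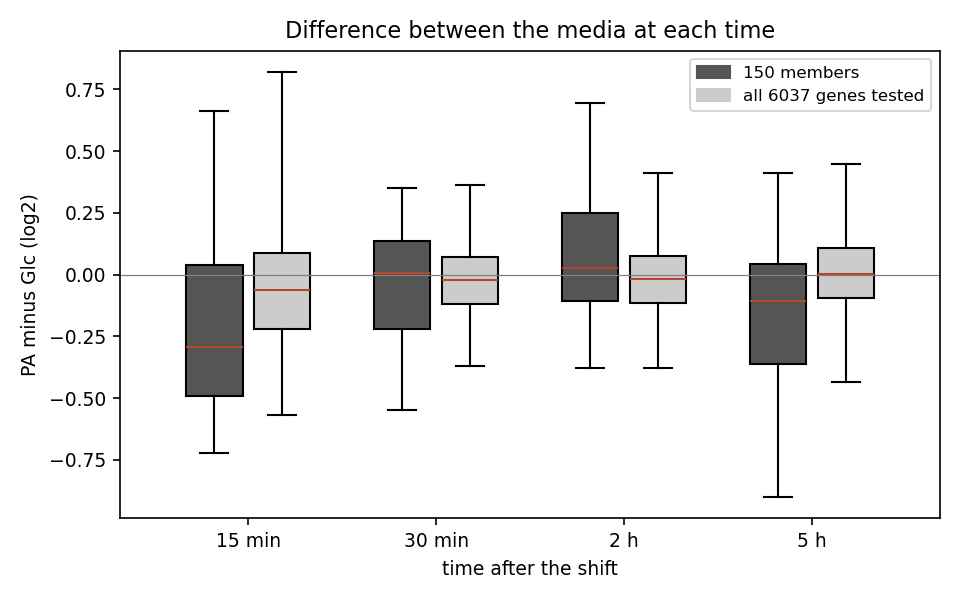
PA minus Glc on the log2 scale at each harvest time, for the 150 members (left box of each pair) and all 6037 genes tested (right box), with whiskers at percentiles 5 and 95. The members lie mostly below 0 at 15 min and 5 h and around 0 at 30 min and 2 h.

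The members with such differences had them at different times. Rank 25 had 11.20, 8.93, 7.86 and 9.56 in the PA cultures and 11.68, 8.58, 6.44 and 9.98 in the Glc cultures. Its PA minus Glc was 1.42 ± 0.33 at 2 h (SD over 7 probes), and the other times differed by less than 0.5. Rank 141 had 8.52, 6.27, 6.88 and 7.09 in the PA cultures and 9.01, 6.32, 8.34 and 8.53 in the Glc cultures. It was at the same level in both media at 30 min, and returned close to its 15 min level in the Glc cultures alone, with PA minus Glc of −1.46 ± 0.43 after 2 h and −1.44 ± 0.21 after 5 h (SD, 10 probes). The difference in that return was not tested.

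The decline itself was of unequal size in the 2 media for some members. The difference between 15 and 30 min was smaller in the PA cultures than in the Glc cultures in 105 of the 150 members, against 55.7% of all genes tested. The rule selected the members on these values in both media, so this is a description and was not tested. A gap of at least 1 was found in 5 members with the larger difference in the Glc cultures (2.97% of all genes) and in 2, at ranks 14 and 102, with the larger difference in the PA cultures (3.98% of all genes). The widest gap was that of the member at rank 73, with 8.97, 8.04, 6.72 and 6.61 in the PA cultures and 9.64, 6.95, 6.82 and 7.45 in the Glc cultures. Its PA value was above its Glc value at 30 min and below it at 15 min, so that the difference between these times was 0.93 in the PA cultures and 2.69 in the Glc cultures. The members at ranks 8 and 113, whose identifiers follow each other, were likewise above the Glc culture at 30 min, by 1.06 ± 0.30 and 0.68 ± 0.42 (SD over 10 probes each), and below it at every other time.

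The peak at 15 min was seen by most single probes. Of the 1381 probes of the members, 1280 (92.7%) had their highest value at 15 min in both media, against 14.1% of the probes of all genes tested. In 94 members every probe did, and in 0 members fewer than 50% of the probes did. The gene medians that chose the members are made from these probes, so this is a description of their uniformity. The SD over the probes of a member for the difference between 15 and 30 min had a median of 0.42 in the PA cultures and 0.44 in the Glc cultures, while repeated spots of 1 probe differed by a median of 0.118.

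At least 1 probe was well above background on all 8 arrays in 135 of the 150 members (90%), against 83.4% of the identifiers ranked. At 15 min no member lacked such a probe. At 30 min, 2 h and 5 h, 7, 5 and 9 members lacked one in the PA cultures and 8, 5 and 0 in the Glc cultures. Their later levels are therefore bounds, and the differences from 15 min are understated for these members.

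The identifiers carry the letter of the chromosome and a running number, by which neighbours were found. Members were found on all 4 chromosomes, with 25 on A, 20 on B, 47 on C and 58 on D, or 2.88%, 1.91%, 2.37% and 2.67% of the identifiers ranked there. Of the 300 places directly before or after a member, 36 (12%) held another member, while members made up 2.47% of all identifiers ranked. In all, 34 members formed 18 neighbouring pairs, which included 2 runs of 3. Of the neighbours that were no members, 75 of 257 (29.2%) had a score above 0, against 11.6% of all identifiers ranked that were no members. ARAD1D18788g, ARAD1C44176g and ARAD1A18238g each had a member beside them. Whether the order of the numbers matches the genome sequence was not tested, and neither the strand nor the distance between neighbours was analysed here.

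Neighbouring members shared the sign of PA minus Glc more often than not. The sign was shared in 14 of the 18 pairs at 15 min, in 15 at 30 min, in 13 at 2 h and in 14 at 5 h, against 54.7%, 54.3%, 56.4% and 53.7% of all neighbouring genes tested. However, 110 of the 150 members were lower in the PA culture at 15 min and 103 at 5 h, against 73 at 30 min and 66 at 2 h. Such a lean makes shared signs more frequent in any pairs of members. The middle members of the 2 runs of 3 count in 2 pairs each, and the rule used the 15 min values. These counts are a description and were not tested. The members at ranks 34 and 150 form such a pair, with PA minus Glc of −1.48 ± 0.75 and −1.05 ± 0.45 at 2 h (SD over 10 probes each). The pattern among the later times, by the limit of 0.5, was of the same kind in 9 of the 18 pairs.

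The genes printed by identifier in the study's text were looked up among the members, and genes printed by name alone were not. Of these 10 identifiers, 9 could be ranked and 0 were members, with scores between −1.05 and 0.06.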

How the data were processed

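The deposited scanner files hold, per the file headers, median intensities of spots and of their local background from Agilent Feature Extraction 11.5.1.1, not normalized between arrays. The authors' deposited table is on the log2 scale and not centred. Its values were recovered within 5e-09 by normexp (offset 16) followed by quantile normalization of every spot, controls included. It holds no columns of comparisons. It was used to choose the members, as the median over spots of a gene.

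All other values were computed from the scanner files with limma 3.58.1 in R 4.3.3, with normexp (offset 50, on all spots), removal of 1439 control spots and outlier flags, quantile normalization and log2. Repeated spots were averaged per probe, and the median of its probes was taken for each gene. To be tested, a gene needed a probe marked as well above background on 2 or more of the 8 arrays, which left 6037 genes, all members included. Following the normalization and the Bonferroni adjustment of the study's methods, lmFit and eBayes were run on the 6 later arrays with time and medium as terms. P-values use the media and times in place of replicates, and measure only the spread between these arrays. The 15 min arrays were kept out of the fit. The scripts were tested on simulated data.

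Identifiers with a mark at the end of the probe name, whose meaning was not stated, were used like the others. The members and lists were chosen with earlier results of these data known. Only 4 identifiers are printed, those of the 2 members with the highest score and the 2 with the largest 5 h minus 30 min in the lower of the media, and other members are given by rank. Members at other ranks were chosen after their values were seen, as was the limit of 0.5 for the later pattern. Taking the 150 highest first and leaving out afterwards would give 116 members, all of them among the 150. The alternatives tried were other offsets, the processed signal, median scaling, the authors' table, means over probes, other filters, fits, adjustments and left-out times. Matplotlib 3.10.9 (Python 3.11.15) was used for the figures. Sequences, gene names and coordinates were not analysed here.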

Additional observations from a re-analysis of the deposited data

Results flagged for a closer look

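Some differences ran in opposite directions in the PA and the Glc cultures, and with 1 array per condition none of these differences between media was tested. The median over the members of 2 h minus 30 min was 0.0139 in the PA cultures and −0.0378 in the Glc cultures on the log2 scale, both far below the SD over probes. ARAD1D18788g had 2 h minus 30 min of 0.21 in the PA cultures and −0.36 in the Glc cultures, and 5 h minus 30 min of 0.48 and −0.26. ARAD1D39886g had 2 h minus 30 min of 0.40 in the PA cultures and −0.43 in the Glc cultures, and ARAD1C44176g had 1.03 and −0.19. In 2 members, 5 h minus 30 min had a size of at least 0.5 with opposite signs in the 2 media.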

How the results depend on the processing

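The labels give no replicate numbers, so samples could be paired by time or medium alone, as in the fit. Without time as a block, PA minus Glc had 9 members at an unadjusted p under 0.05 in place of 18. The share of all genes in that fit is not given here, so the change describes the fit and not the members. For the main comparisons 58 values, and for other counts and medians over the members 89 values, stayed within the spread over probes or within 1.5 times. The median PA minus Glc at 30 min (0.00) changed sign, to −0.07 with the processed signal, −0.02 with median scaling and −0.0049 with means over probes. All members kept a score above 0 under each other way of making the values, and 144 a score above 0.3 with means over probes. However, of the 150 members, 130 were among the 150 highest on the scale used here, 113 with the processed signal and 119 with means over probes. The 5 h minus 30 min call of 0 members became 1 at offset 0, 1 with a trended and robust fit, and 8 with Benjamini-Hochberg adjustment. By that adjustment it was 0 without the 2 h arrays and 8 to 33 under the other settings. The median difference between 15 and 30 min (1.13 in the PA and 1.28 in the Glc cultures) was larger when no constant was added (1.79 in the PA and 1.95 in the Glc cultures) or when the processed signal was used (2.05 in the PA and 2.28 in the Glc cultures). Members with PA minus Glc of at least 1 in size numbered 3 at 30 min, and 6 at offset 16, 11 at offset 0, 25 with the processed signal, 1 with median scaling, 6 in the authors' table and 1 with means over probes. At 2 h they numbered 8, and 19 at offset 0, 30 with the processed signal and 5 with means over probes. At 5 h they numbered 7, and 13 at offset 16, 20 at offset 0, 31 with the processed signal, 11 with median scaling and 13 in the authors' table. The shares of all genes at these other settings are not given here. Precision is limited by having 1 array per condition.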
